A study of Rattus norvegicus with 192 samples.

Results

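Pomc, the gene of the hormone precursor proopiomelanocortin, was followed together with Tbx19, Pcsk1, Pcsk2, Crhr1 and Pax7, genes that serve the pituitary cells in which the precursor is made and cut. These 6 genes were taken by symbol from the 17483 genes of the count table. The study profiled pituitary, hypothalamus, thyroid and liver of adult male rats, wild type and of the Crl:CD(SD) stock, by 3′ bulk RNA barcoding, in which the 3′ ends of polyadenylated transcripts are tagged with a well barcode and pooled. Rats were gavaged once a day for 7 days, from postnatal day 56 to 62, with 1 of 4 treatments. These were corn oil alone (vehicle), vancomycin at 8 mg per kg body weight, PFOS at 3 mg per kg, or both compounds at those doses (the combination). Vancomycin is a glycopeptide antibiotic that is poorly absorbed from the gut, and PFOS, perfluorooctane sulfonate, is a persistent fluorinated surfactant. Each tissue had 12 libraries per treatment, numbered from 1 to 48. The labels do not state that each number is a separate rat, so p-values measure only the spread between these libraries. The treatments filled separate plate rows, so row and treatment cannot be told apart, and the comparisons with vehicle share the same vehicle libraries.

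In the pituitary, Pomc is transcribed in corticotropes of the anterior lobe and in melanotropes of the intermediate lobe. Corticotropes answer hypothalamic corticotropin-releasing hormone through its receptor, encoded by Crhr1, and use the convertase PC1/3, encoded by Pcsk1, to release ACTH, which drives the adrenal cortex. Melanotropes also hold the convertase PC2, encoded by Pcsk2, which cuts ACTH further to alpha-MSH. Tbx19 encodes TPIT, the T-box factor that both cell types need to switch Pomc on, and Pax7 encodes the factor that sets the melanotrope fate. A separate group of Pomc neurons in the arcuate nucleus of the hypothalamus restrains feeding and uses the same precursor and convertases.

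The stretch just before the start of Pomc is shown because the start region carries the letters of known promoter elements and Pomc is the member on which the results turn. It is the 250 bases upstream of the RefSeq start in the assembly GRCr8, chr6:32659103-32659352, plus strand, and 66.4% of its bases are G or C.
Pomc: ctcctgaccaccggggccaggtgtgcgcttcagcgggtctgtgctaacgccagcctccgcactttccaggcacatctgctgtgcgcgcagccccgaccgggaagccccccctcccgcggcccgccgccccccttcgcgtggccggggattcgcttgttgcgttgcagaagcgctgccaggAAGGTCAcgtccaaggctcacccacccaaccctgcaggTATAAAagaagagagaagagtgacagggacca
The capitals mark AAGGTCA, the core letters of a nuclear receptor element, whose first base lies at -70 from the start, and TATAAA, the TATA box letters, at -32. AAGGTCA, searched on both strands, occurred in 3.99% of 33469 such windows, and TATAAA, searched on the gene's strand, in 8.06%. The motifs do not overlap, and neither was found in the windows of Tbx19, Pcsk2, Crhr1 or Pax7. The T-box letters TCACACC, searched on both strands and present in 3.22% of all windows, were found in none of the members' windows. Only 250 bases per window were searched, so sites farther from the start could not be found. Pcsk1 had no entry in the table.

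Pituitary libraries held 231929 to 2804779 counts and hypothalamus libraries 172700 to 1240091, after combination library 44 of hypothalamus with 1280 counts was left out. That left 48 and 47 libraries. Levels are given as CPM, a gene's count scaled to a common library total. In hypothalamus the mean total was 905432 in vehicle and 532574 in the combination. PFOS hypothalamus library 31 stood apart, with Oxt at 4.86 CPM and Agrp at 0.972 CPM, where the lowest of the other libraries had 359 and 6.44 CPM. Combination pituitary library 48 was the deepest and had the lowest Gh1, at 92267 CPM against at least 193826 CPM elsewhere. Vehicle pituitary library 1 had the lowest Pomc, Pcsk1 and Pcsk2 of all 48 pituitaries, and vehicle hypothalamus library 1 had the highest Pomc of all 47 hypothalami. Results that turned on 1 of these 4 libraries are given with and without it.

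Pomc was abundant in the pituitary and varied strongly from library to library within every treatment. In vehicle pituitaries it ran from 1446 CPM over a median of 7734 to 30769 CPM. With vancomycin the lowest, median and highest levels were 2476, 9048 and 11850 CPM. With PFOS they were 2453, 9193 and 17591 CPM. The 3 groups overlapped over most of their ranges. Combination pituitaries ran from 4972 over 10026 to 23139 CPM, which again lay inside the vehicle range. The top of that range was vehicle library 7 alone, and the next highest vehicle library, 9, had 16130 CPM. Combination libraries 41, 42, 43 and 48 and PFOS libraries 31 and 34 lay above 16130 CPM. The group means ± SD were 9344 ± 7674 CPM in vehicle, 8604 ± 2897 CPM with vancomycin, 9728 ± 5579 CPM with PFOS and 12357 ± 6533 CPM in the combination (n = 12 each). Over all 48 libraries the highest level was 21.3 times the lowest.

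**Figure D1:**
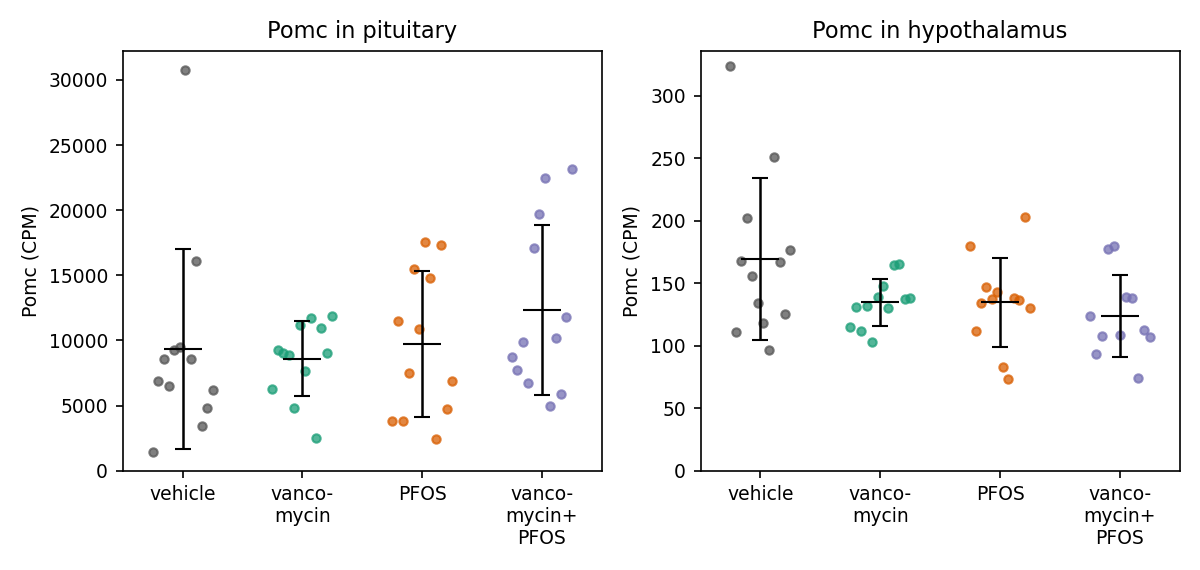
Pomc in CPM in each pituitary (left) and hypothalamus (right) library by treatment, on linear axes of different scale; points are libraries, the long bar is the mean and the whiskers are 1 SD (n = 12 per group, 11 for the hypothalamus combination). Vehicle pituitaries spread from 1446 to 30769 CPM, and vehicle hypothalami from 96.4 to 324 CPM, so every group overlaps its vehicle group.

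No member was called in pituitary in any contrast. The test was edgeR's quasi-likelihood F test over 4380 genes with an adjusted p under 0.05, and Pomc, Tbx19, Pcsk1 and Pcsk2, 4 of the 6 members, had enough counts to enter it. Of all genes tested, 1.19% were called for PFOS against vehicle, 1.37% for the combination against vehicle (1.35% lower) and 0.0228% for vancomycin against vehicle. Over both PFOS contrasts together, PFOS against vehicle and the combination against vancomycin, the share was 1.44%, and in the remaining contrasts 0%. At an unadjusted p under 0.05 the count of members was also 0 in each of the 8 contrasts, and DESeq2 called 0. Differences are log2 fold changes ± standard error. For Pomc the difference from vehicle was 0.06 ± 0.35 with PFOS, with a 95% interval of -0.62 to 0.74 and an adjusted p of 0.9997 in edgeR. With vancomycin it was -0.20 ± 0.35, from -0.88 to 0.48. In the combination it was 0.35 ± 0.35, from -0.33 to 1.03, with an adjusted p of 0.863 in edgeR. The widest estimate was the combination against vancomycin alone, at 0.55 ± 0.35 with an adjusted p of 0.749 in edgeR. Differences inside these intervals are compatible with the data, so the lack of a call does not show equal levels. Without vehicle library 1 the PFOS estimate was -0.04 ± 0.33, and without combination library 48 the combination estimate was 0.25 ± 0.35. Vehicle library 7, the highest in Pomc, was not left out in any fit of its own.

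Pituitary Pomc followed sequencing depth. After the treatment means were removed, log2 Pomc and log2 total count had a Pearson r of 0.67 and a Spearman rho of 0.69 over the 48 libraries. Both permutation p-values were 1e-05, the smallest that 100000 resamples can give, and 2.33e-05 after adjustment over 7 genes. Within vehicle, vancomycin, PFOS and combination libraries r was 0.62, 0.69, 0.82 and 0.67. Without the 2 libraries farthest from the median depth r was 0.69. Gh1, the growth hormone gene of somatotropes, went the other way with r = -0.92. It made up from 9.23% to 41.4% of the counts of a pituitary library. A lower Gh1 share raises the CPM of other genes, so the relations of Pomc and Gh1 with depth are not independent. Prl, the prolactin gene of lactotropes, had r = 0.59. Tbx19, Pcsk1, Pcsk2 and Crhr1 had r of -0.27, -0.12, 0.01 and 0.22, with adjusted permutation p-values of 0.144, 0.510, 0.934 and 0.198. Mean depth was 458442 counts in vehicle pituitaries and 735294 in combination pituitaries, and with log2 depth as a covariate the edgeR estimate of Pomc in the combination against vehicle was -0.05 ± 0.26. The part of depth in the group values was otherwise not tested.

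**Figure D2:**
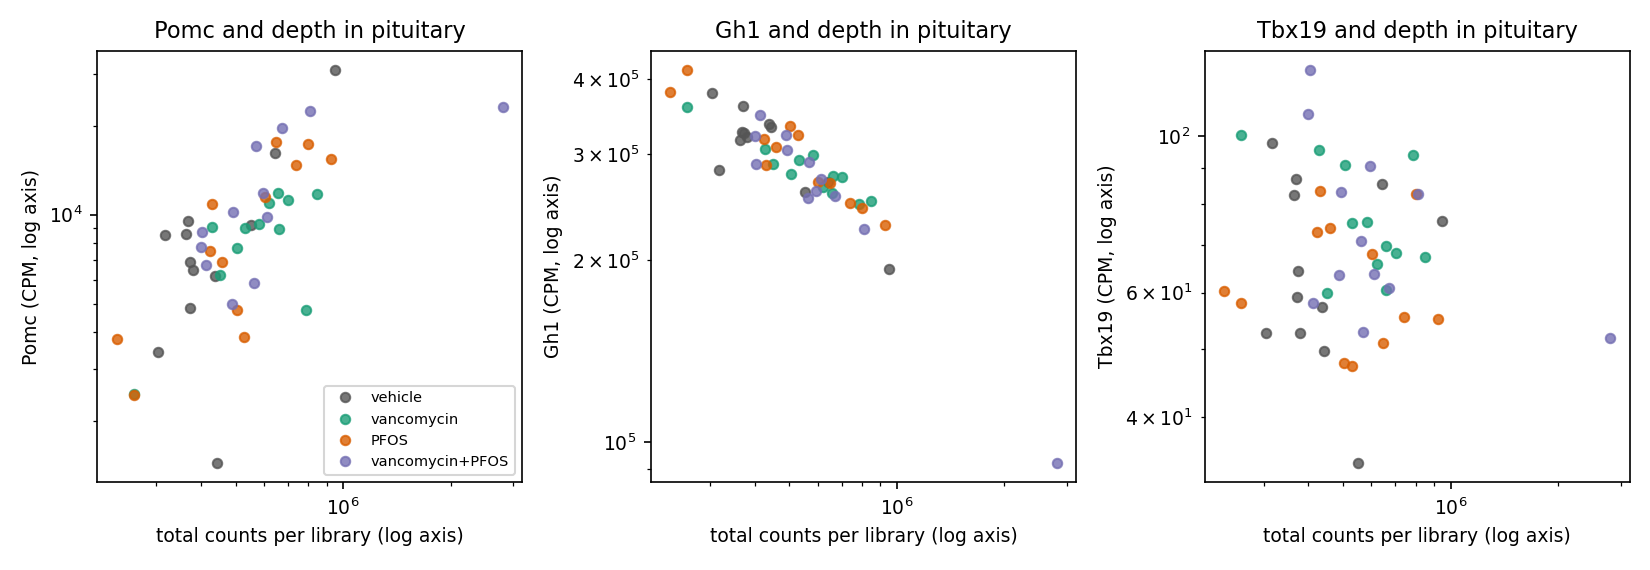
Pomc, Gh1 and Tbx19 in CPM against the total count of each of 48 pituitary libraries, on log axes, coloured by treatment. Pomc rises and Gh1 falls with the total count in every treatment (r = 0.67 and -0.92 after removal of treatment means), and Tbx19 does not follow it (r = -0.27, adjusted permutation p = 0.144); the point at the far right of each panel is combination library 48.

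Tbx19, the factor that switches Pomc on, varied less between pituitaries than Pomc. Its level ran from 34.5 over 61.8 to 97.9 CPM in vehicle pituitaries and from 59.9 over 72.6 to 100 CPM with vancomycin. With PFOS it ran from 47.2 over 59.2 to 83.7 CPM, and in the combination from 51.7 over 67.4 to 124 CPM. All groups overlapped, and over the 48 libraries the highest level was 3.60 times the lowest. The coefficient of variation was 25.7% for Tbx19 and 59.2% for Pomc, though counting error weighs more on Tbx19, with 1914 counts in all against 342348 for Pomc. The log2 difference from vehicle was -0.08 ± 0.15 with PFOS, 0.11 ± 0.14 with vancomycin and 0.10 ± 0.14 in the combination, with edgeR adjusted p-values of 0.988, 0.9997 and 0.910.

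The convertases showed the same overlap between treatments. Pcsk1 had group means of 73.0 ± 23.6 CPM in vehicle, 79.8 ± 8.64 CPM with vancomycin, 72.6 ± 10.6 CPM with PFOS and 72.4 ± 17.1 CPM in the combination (SD, n = 12 each). Its differences over the 8 contrasts lay between -0.15 and 0.09 on the log2 scale. Pcsk2 ran from 33.8 over 120 to 160 CPM in vehicle and from 91.5 over 139 to 219 CPM in the combination. The lowest value was that of vehicle library 1, and the next lowest vehicle library had 75.7 CPM. For the combination against vehicle the log2 difference of Pcsk2 was 0.23 ± 0.16, with an adjusted p of 0.790 in edgeR, and 0.14 ± 0.14 without vehicle library 1.

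Crhr1 and Pax7 were at the limit of this depth in pituitary and did not enter the test. Crhr1, the receptor for the hypothalamic releasing hormone, had 112 counts in all and at least 1 count in 39 of 48 libraries. Its group means were 3.81 ± 2.64, 3.35 ± 2.76, 3.86 ± 4.10 and 3.67 ± 2.99 CPM in vehicle, vancomycin, PFOS and combination (SD, n = 12 each), well within each other's spread. Pax7, the melanotrope fate gene, had 2 counts among 27907161, in 2 PFOS libraries. This is 0.0717 CPM with an exact 95% binomial interval of 0.00868 to 0.259 CPM, which covers counting error only. Differences in Pax7 were not detectable at this depth.

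**Figure D3:**
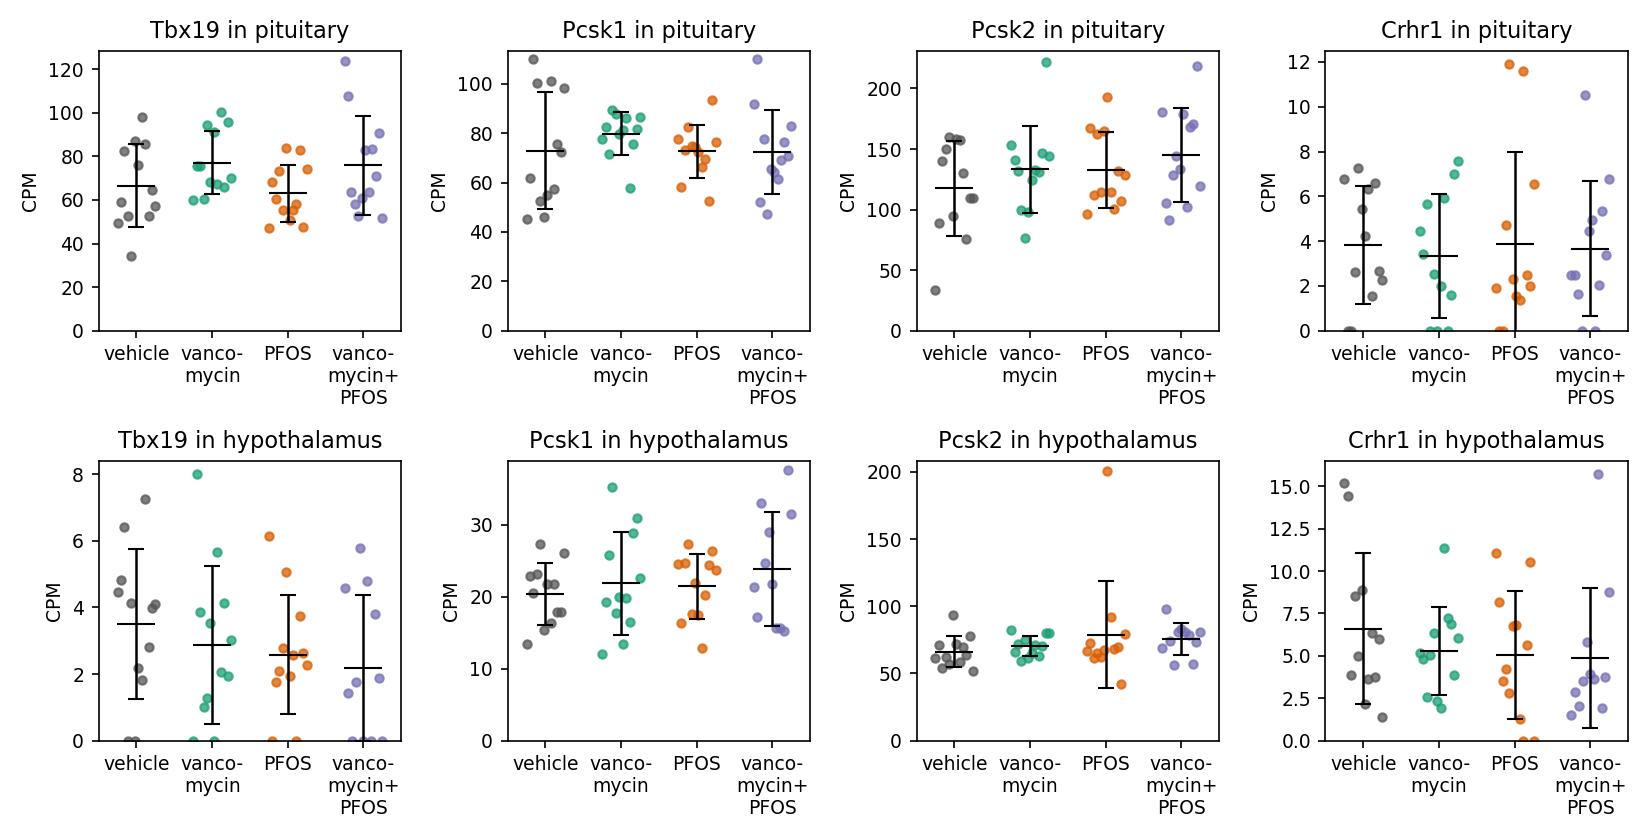
Tbx19, Pcsk1, Pcsk2 and Crhr1 in CPM in each pituitary (top) and hypothalamus (bottom) library by treatment, on linear axes of different scale; points are libraries, the long bar is the mean and the whiskers are 1 SD, cut at 0 where they would pass it. All treatment groups overlap, and the Pcsk2 panel of hypothalamus shows PFOS library 31 at 200 CPM above all other libraries.

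Among the members, Pomc and Pcsk2 varied together across pituitaries. With treatment means removed, their log2 levels had r = 0.54, a permutation p of 0.00031 and an adjusted p of 0.00465 over the 15 pairs of members. Spearman's rho was 0.43 with an adjusted permutation p of 0.0489. Within vehicle and PFOS libraries r was 0.80 and 0.62, and within vancomycin and combination libraries 0.20 and 0.20. Without the 2 libraries farthest from the median Pomc level r was 0.39. The pooled relation partly rests on vehicle library 1, since without it r was 0.41 and the adjusted permutation p was 0.0888. With log2 depth also removed from both genes r was 0.72 and the adjusted permutation p was 0.00015. No other pair of members passed the threshold. Pomc and Tbx19 had r = 0.09, and 0.38 with depth removed, with adjusted permutation p-values of 0.692 and 0.128. Pomc and Pcsk1 had r = -0.08.

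**Figure D4:**
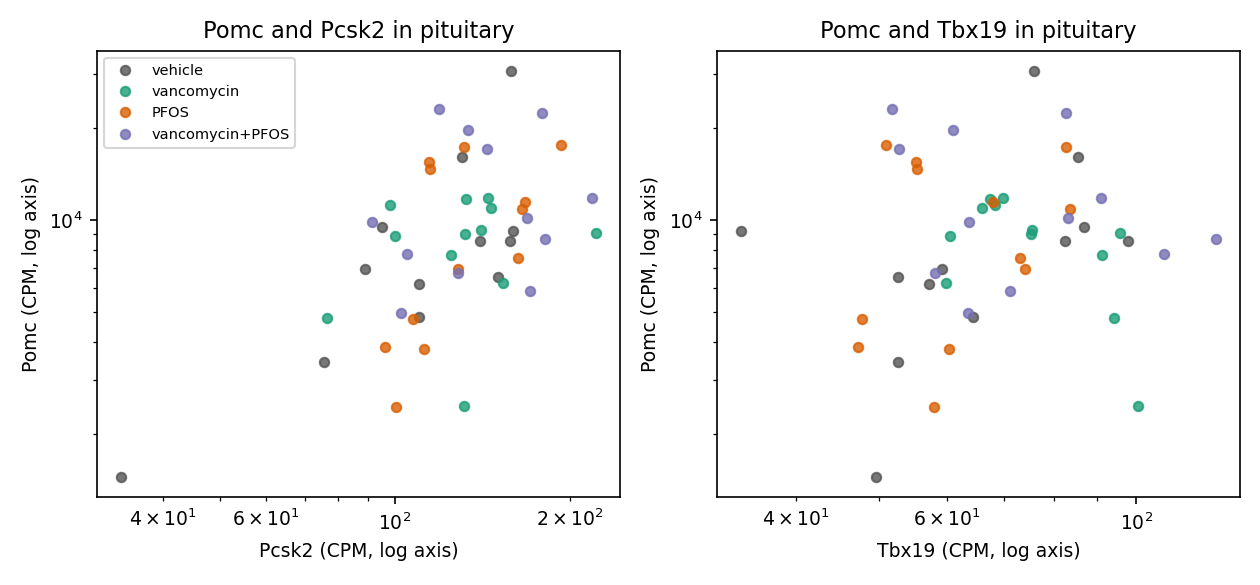
Pomc in CPM against Pcsk2 (left) and Tbx19 (right) in each of 48 pituitary libraries, on log axes, coloured by treatment. Pomc and Pcsk2 vary together (r = 0.54 with treatment means removed, 0.41 without vehicle library 1, the point at the lower left), and Pomc and Tbx19 do not pass the threshold (r = 0.09).

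The members differed clearly between the tissues. In vehicle libraries, hypothalamus lay below pituitary by log2 differences of -6.44 ± 0.43 for Pomc, -4.83 ± 0.24 for Tbx19, -2.47 ± 0.16 for Pcsk1 and -1.50 ± 0.15 for Pcsk2. All 4 members tested were lower in hypothalamus by edgeR's test, with adjusted p-values of 2.53e-12, 1.13e-19, 4.20e-16 and 1.01e-10. Of the 4958 genes tested, 74.5% were called in either direction and 36.1% were lower in hypothalamus, so a call between these tissues is common. Tbx19 passed the filter on low counts only through pituitary, so its difference had to be large. Over all treatments Pomc averaged 10008 CPM in pituitary, 141 ± 43.9 CPM in hypothalamus (SD, n = 47), 4.66 ± 2.95 CPM in thyroid (n = 46) and 3.41 ± 3.27 CPM in liver (n = 37). Thyroid and liver did not differ beyond their spread. Pcsk2 had another order, with 250 ± 64.6 CPM in thyroid, 132 ± 36.7 CPM in pituitary, 72.7 ± 21.99 CPM in hypothalamus and 4.69 ± 5.76 CPM in liver. Pcsk1 averaged 74.4 ± 15.9 CPM in pituitary, 38.9 ± 13.3 CPM in thyroid, 21.9 ± 6.04 CPM in hypothalamus and 1.27 ± 1.42 CPM in liver. Thyroid and liver came from another plate, so levels set across plates are a description. Crhr1 averaged 3.67 ± 3.08 CPM in pituitary and 5.47 ± 3.73 CPM in hypothalamus, where 45 of 47 libraries had a count. Pax7 had 0 counts in hypothalamus, which allows up to 0.0882 CPM over all libraries.

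In hypothalamus, Pomc was lower in the combination than in vehicle, and this was the sole treatment call among the members. Vehicle hypothalami had 96.4 CPM at the lowest, 162 CPM at the median and 324 CPM at the highest. With vancomycin the values were 103, 135 and 165 CPM, and with PFOS 73.0, 137 and 203 CPM. Combination hypothalami had 74.4, 113 and 180 CPM. The groups overlapped, and 9 of 11 combination libraries, 10 of 12 PFOS libraries and 12 of 12 vancomycin libraries lay below the vehicle mean of 169 ± 64.9 CPM, as did 8 of the 12 vehicle libraries themselves. That mean was raised by vehicle library 1 at 324 CPM and vehicle library 9 at 251 CPM.

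For the combination against vehicle, Pomc fell by 0.54 ± 0.16 on the log2 scale, with an adjusted p of 0.0308 in edgeR's test, and DESeq2 also called it, at -0.52 with an adjusted p of 0.0210. It was 1 of 3 members tested, where 8.14% of 6596 genes were called and 5.14% were called lower. The call did not hold under several alternatives. Without vehicle library 1 the difference was -0.40 ± 0.14 with an adjusted p of 0.1001 in edgeR, and leaving out 1 library at a time ended the call in 7 of 23 cases, vehicle 1 and 9 and combination 38, 39, 42, 46 and 47. With log2 depth as a covariate the difference was -0.52 ± 0.20 with an adjusted p of 0.206 in edgeR. A permutation test of the CPM gave -45.3 CPM with p = 0.0422, and 0.203 after adjustment over 5 comparisons. In bulk tissue, fewer Pomc cells and less Pomc RNA per cell cannot be told apart. Pituitary transcripts were also present in these libraries, with Pomc at 1.41% and Gh1 at 1.53% of their pituitary means. The reported fit did not separate Pomc of pituitary origin from Pomc made in the hypothalamus.

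The other treatments gave hypothalamic Pomc estimates of the same sign that were not called. The log2 difference from vehicle was -0.38 ± 0.15 with PFOS, with an adjusted p of 0.140 in edgeR, where 4.37% of genes were called and 3.21% were called lower. With vancomycin it was -0.33 ± 0.15 with an adjusted p of 0.9996 in edgeR, where 0% of genes were called. Without vehicle library 1 these were -0.24 ± 0.14 and -0.20 ± 0.14. Over both PFOS contrasts together the mean difference was -0.29 ± 0.11 with an adjusted p of 0.0596 in edgeR, where 20.3% of genes were called and 11.7% were called lower. The combination did not differ from vancomycin alone (-0.20 ± 0.17, adjusted p 0.496) or from PFOS alone (-0.16 ± 0.17, adjusted p 0.861) beyond the threshold in edgeR, with 7.82% (4.88% lower) and 0% of genes called. The interaction of the compounds was 0.18 ± 0.23 on the log2 scale, and 0% of genes were called for it. In these contrasts other than the combination against vehicle 0 members were called by edgeR and 0 by DESeq2. At an unadjusted p under 0.05 there were 2 members for PFOS against vehicle (Pomc and Pcsk2) and 1 (Pomc) for vancomycin against vehicle and for each compound over both of its contrasts.

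The convertase genes were not called in hypothalamus. Pcsk1 ran from 13.4 over 21.1 to 27.3 CPM in vehicle and from 15.3 over 21.7 to 37.6 CPM in the combination, a log2 difference of 0.16 ± 0.18. Pcsk2 ran from 52.1 over 63.0 to 93.5 CPM in vehicle and from 42.1 over 67.8 to 200 CPM with PFOS. The value of 200 CPM was that of library 31, in which the hypothalamic peptide transcripts were low. The log2 difference of Pcsk2 for PFOS against vehicle was 0.29 ± 0.14, with an adjusted p of 0.233 in edgeR, and 0.04 ± 0.10 without library 31. Pomc in library 31 was 82.6 CPM, and without it the PFOS difference of Pomc was -0.32 ± 0.15 with an adjusted p of 0.261 in edgeR.

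Whether the combination acted on Pomc differently in the 2 tissues was tested directly. The difference in hypothalamus minus that in pituitary was -0.92 ± 0.42 on the log2 scale, with an adjusted p of 0.217 in edgeR, where 3.51% of 6573 genes were called and 2.07% were called lower. For PFOS it was -0.47 ± 0.41 and for vancomycin -0.15 ± 0.40. No member was called for any of the 3 treatments, with 1 member at an unadjusted p under 0.05 for the combination, Pomc, and 0 for the other treatments, where 1.32% and 0% of genes were called for PFOS and vancomycin.

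Gh1, Prl, Cga, Tshb and Lhb transcripts were present in all 47 hypothalamus libraries and Fshb in 39, and Gh1 was used as a gauge of how much pituitary signal reached them. Gh1 averaged 4467 ± 707 CPM in hypothalamus (SD, n = 47), or 1.53% of its pituitary mean. Pomc in hypothalamus was 1.41% of its pituitary mean. Prl stood at 0.531%, Fshb, a gonadotrope hormone gene, at 0.509%, Lhb, also of gonadotropes, at 2.26%, Cga, the shared glycoprotein hormone subunit, at 3.16% and Tshb, the thyrotrope hormone gene, at 3.69%. Pomc thus lay within the range of hormone genes. The share of Tbx19 was 3.97%, at 97 counts over 47 hypothalami, and that of Avpr1b, the vasopressin receptor of corticotropes, was 0.672% at 3 counts. The Gh1 means in hypothalamus lay within each other's spread, at 4526 ± 1128, 4349 ± 502, 4484 ± 452 and 4510 ± 613 CPM in vehicle, vancomycin, PFOS and combination.

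Whether hypothalamic Pomc exceeded a Gh1-scaled pituitary share turned on how the pituitary ratio was formed. Pituitaries held 4.65 Pomc counts per 100 Gh1 counts when summed, and single pituitaries from 0.433 over a median of 3.02 to 25.1, the highest being combination library 48. Pituitary Pomc rose and Gh1 fell with depth, so this ratio rose with depth, and summing gives deep libraries the most weight. Hypothalami held 3.28 when summed, and single hypothalami from 1.65 over 3.06 to 7.56, inside the pituitary range. With the summed ratio, Pomc minus the Gh1-scaled share averaged -66.8 ± 42.4 CPM and was below 0 in 46 of 47 hypothalami, all but vehicle library 1 at 124 CPM. Summed without library 48 the ratio was 3.91, the difference averaged -33.5 ± 40.9 CPM, and 39 of 47 were below 0. Vehicle pituitaries alone gave -39.7 ± 41.1 CPM and 42 of 47, and libraries of at least 500000 counts gave -133 ± 48.3 CPM and 40 of 41. With the median ratio, which does not weight pituitaries by depth, the difference averaged 6.09 ± 39.95 CPM and was below 0 in 22 of 47. With Prl in place of Gh1 (25.5 Pomc counts per 100 Prl counts) it averaged 79.1 ± 40.7 CPM and was below 0 in 0 of 47. The sign of the difference thus depended on the ratio and on the gauge gene. Between treatments, the Gh1-scaled value was lower in the combination than in vehicle by -44.6 CPM, with a permutation p of 0.0327 and an adjusted p of 0.164 over 5 comparisons, and none of the 5 passed. Without hypothalamus vehicle library 1 it was -29.5 CPM with an adjusted permutation p of 0.291. With log2 Gh1 as a covariate in edgeR, Pomc in the combination differed from vehicle by -0.51 ± 0.15 with an adjusted p of 0.0244.

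**Figure D5:**
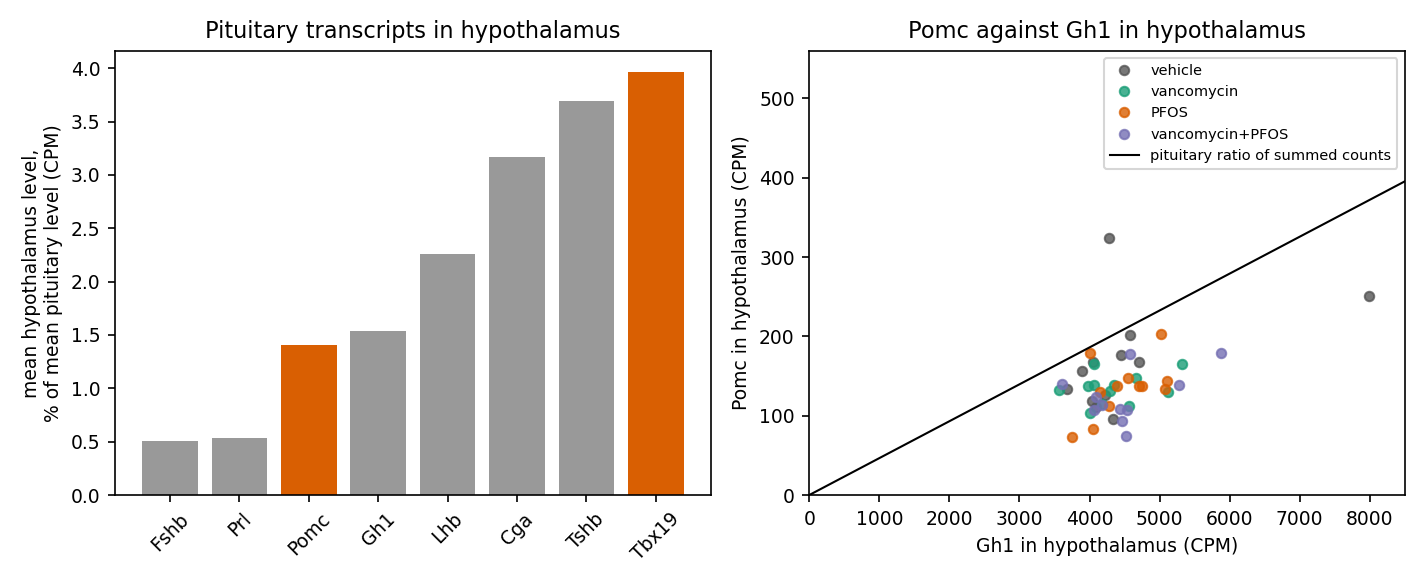
Left, mean hypothalamus level as a percentage of the mean pituitary level for hormone genes (grey) and for Pomc and Tbx19 (orange), from 0.509% for Fshb to 3.97% for Tbx19, with Pomc at 1.41% beside Gh1 at 1.53%; right, Pomc against Gh1 in CPM in each of 47 hypothalamus libraries, coloured by treatment, with the line of the summed pituitary ratio. The points lie below this line in 46 of 47 libraries, and in 39 of 47 for the ratio summed without pituitary library 48. For the median pituitary ratio it was 22 of 47, and with Prl in place of Gh1 0 of 47.

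Across hypothalami, Pomc varied with pituitary hormone genes and with an arcuate gene alike. With treatment means removed, r with Pomc was 0.44 for Gh1, 0.44 for Prl and 0.47 for Agrp, the melanocortin antagonist of neighbouring arcuate neurons. Spearman's rho was 0.44, 0.44 and 0.41. The adjusted permutation p-values of r over 7 relations were 0.0141, 0.00984 and 0.00462, and those of rho were 0.00977, 0.00977 and 0.0113. Without the 2 libraries farthest from the median of the other gene r was 0.31, 0.37 and 0.41. Tshb had r = 0.36 with an adjusted permutation p of 0.0390, while its rho of 0.31 had 0.0775, and without the 2 farthest libraries its r was 0.24. Without vehicle library 1, r was 0.50 for Gh1, 0.44 for Prl and 0.43 for Agrp, and without PFOS library 31 it was 0.43, 0.43 and 0.41, all with adjusted permutation p-values under the threshold. Tshb no longer passed in either case, with adjusted permutation p-values of 0.0670 and 0.119. Cga, Cartpt and the total count had r of 0.27, 0.26 and -0.11 and did not pass. Within the 4 treatments r ran from 0.27 to 0.60 for Gh1 and from 0.22 to 0.66 for Agrp.

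On the plate of thyroid and liver the same transcripts were scarce. Gh1 averaged 7.37 ± 13.3 CPM in thyroid and 126 ± 103 CPM in liver, and Pomc was 0.0465% and 0.0341% of its pituitary mean there. Liver wells carried the same barcodes as pituitary wells in 48 of 48 numbers, and thyroid wells the same as hypothalamus wells in 48 of 48. Pomc per 100 Gh1 counts was 3.75 in liver and 53.6 in thyroid, the latter at 118 Pomc counts in all. The summed pituitary ratio was 4.65, and single pituitaries ran from 0.433 to 25.1. The source of these transcripts in thyroid and liver was not tested.

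The wider pathway was read from lists of genes that process proopiomelanocortin, set the corticotrope and melanotrope fate, carry releasing and feedback signals, respond to glucocorticoid, or work with melanocortins in the arcuate nucleus. Of 70 such genes other than the members, 25 were tested in pituitary and none was called in any of the 8 contrasts. In the combination against vehicle their median log2 difference there was 0.01, against 0.00 over all 4380 genes. In hypothalamus 23 were tested, with a median of -0.16 against 0.00 over all 6596 genes, and 1 was called, lower, where 8.14% of all genes were called and 5.14% were called lower. This was Ctsl, which encodes cathepsin L, a protease that can also cut proopiomelanocortin. Ctsl went from 219 ± 31.6 CPM in vehicle to 183 ± 30.1 CPM with PFOS and 164 ± 20.2 CPM in the combination. It fell by 0.28 ± 0.08 with PFOS and by 0.47 ± 0.08 in the combination on the log2 scale, with edgeR adjusted p-values of 0.0318 and 0.000201. With depth as a covariate neither was called, at -0.21 ± 0.08 (adjusted p 0.196) and -0.33 ± 0.09 (adjusted p 0.0611) in edgeR. The PFOS call was also lost with no filter (adjusted p 0.0562), at 500000 counts (0.0643) and with libraries thinned to 1 depth (0.402) in edgeR, while the call in the combination held there. Ctsl with PFOS was also not called without PFOS library 31 (-0.25, adjusted p 0.0812) or without vehicle library 1 (-0.23, adjusted p 0.1004) in edgeR.

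Over both PFOS contrasts together, 4 of the 23 genes were called in hypothalamus, all lower, where 20.3% of all genes were called and 11.7% were called lower. The share called among the 23 was below the 20.3% called in either direction but above the 11.7% called lower. Besides Ctsl (-0.34 ± 0.06) these were Pcsk1n, the gene of the inhibitor of PC1/3, at -0.43 ± 0.11, Nr3c1, the glucocorticoid receptor gene, at -0.42 ± 0.11, and Mt2A, a metallothionein gene induced by glucocorticoid, at -0.38 ± 0.12. Their edgeR adjusted p-values were 2.31e-05, 0.00564, 0.00519 and 0.0252. For the combination against vancomycin, where 7.82% of all genes were called and 4.88% were called lower, 3 of the 23 were called, Ctsl at -0.40 ± 0.09, Pcsk1n at -0.56 ± 0.16 and Mt2A at -0.57 ± 0.19. With depth as a covariate, 1 of the 23 was called over both PFOS contrasts. This was Ctsl, with an adjusted p of 0.00426 in edgeR, so the calls of Pcsk1n, Nr3c1 and Mt2A were lost. Crh, the releasing hormone gene, averaged 7.38 ± 3.14 CPM in vehicle and 9.52 ± 3.76 CPM with vancomycin. It averaged 5.17 ± 3.33 CPM with PFOS and 6.61 ± 2.67 CPM in the combination. The SDs of these groups overlapped, but the vancomycin and PFOS means lay outside each other's SD. PFOS against vancomycin was not among the contrasts, so this gap was not tested. The PFOS mean includes library 31, in which other hypothalamic peptide transcripts were low.

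Some markers of other cell types were also called lower in hypothalamus. Of 40 marker genes tested in hypothalamus, of 57 listed, 8 were called in the combination against vehicle, all lower, with a median of -0.24 over the 40, where 8.14% of all genes were called and 5.14% were called lower. They were the oligodendrocyte genes Mobp (-0.79 ± 0.16) and Mbp (-0.54 ± 0.14), the haemoglobin genes Hbb (-0.70 ± 0.14) and Hba-a1 (-0.50 ± 0.14), the glial genes S100b (-0.24 ± 0.07) and Agt (-0.25 ± 0.08), the endothelial gene Kdr (-0.64 ± 0.19) and the microglial gene C1qb (-0.55 ± 0.18). Haemoglobin genes have near-identical copies, so their values are uncertain. Summed oligodendrocyte markers ran from 6520 over 8022 to 9474 CPM in vehicle and from 6401 over 7363 to 9548 CPM in the combination. Summed blood markers ran from 2829 over 5511 to 7858 CPM and from 2755 over 4006 to 5894 CPM. Summed astrocyte and pituicyte markers ran from 4240 over 5451 to 7793 CPM and from 4613 over 5033 to 5725 CPM. The groups overlapped in each list. Summed endothelial markers ran from 119 over 148 to 188 CPM and from 75.4 over 120 to 170 CPM. Summed macrophage and microglia markers ran from 241 over 368 to 501 CPM and from 243 over 319 to 408 CPM. Neuron markers, none of which was called in this contrast, summed to 2716 over 3564 to 4573 CPM and 3355 over 3628 to 4497 CPM. These lists overlapped between the groups as well, no marker held in the table was at 0 in hypothalamus, and their part in the Pomc difference was not tested. Over both PFOS contrasts together, 10 of the 40 markers were called lower, where 11.7% of all genes were. They included the neuron genes Syt1 (-0.94 ± 0.23) and Stmn2 (-0.18 ± 0.05), with edgeR adjusted p-values of 0.00328 and 0.0129, beside Mobp, Mbp, Mag, Hbb, S100b, Agt, C1qb and C1qc. Neuron markers summed to 2778 over 3311 to 4848 CPM with PFOS and to 3248 over 3841 to 4520 CPM with vancomycin, which overlapped. The part of these markers in the values of Ctsl, Pcsk1n, Nr3c1 and Mt2A was not tested. In pituitary 0 of 32 marker genes were called in edgeR in any contrast.

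The genes whose levels ranked most like Pomc were found by the same measure in each tissue. With treatment means removed, the 8 highest Spearman rho with Pomc among 4380 pituitary genes were those of Rpl23 (0.86), Rpl8 (0.85), Rpl35al1 (0.84), Ppia (0.83), Rpl34 (0.83), Cxcl14 (0.83), Rps4x (0.83) and Rpl10 (0.82), of which 6 encode ribosomal proteins. Ribosomal protein genes have near-identical copies, so their counts are uncertain. The rho of these 8 genes with depth lay between 0.58 and 0.89, beside 0.69 for Pomc itself. The lowest rho were those of Gh1 (-0.76), Arhgap35 (-0.74), Pitpnb (-0.72) and Tmed9 (-0.72), and the median over all genes was -0.0088. Gh1 held a large share of the pituitary counts, so its CPM and that of Pomc are not independent. Among 6596 hypothalamic genes the most alike were Rnaset2 (0.65), Nnat (0.64), Snhg11 (0.64), Dennd2b (0.62), Mgp (0.61), Set (0.605), Cmbl (0.59) and Agt (0.59), over 47 libraries. The least alike there were Zwint (-0.69), Bcat1 (-0.69), Atp6v1c1 (-0.65) and Atp6v0c (-0.64), beside a median of 0.016 over all genes. The genes most like Pcsk2 in pituitary were Chia (0.64), Oacyl (0.60), Hpcal1 (0.57) and Gsta1 (0.55). Chia, Oacyl and Gsta1 were also lowest of all 48 pituitaries in vehicle library 1, at 6.77, 0 and 147 CPM.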

How the data were processed

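Counts per gene were taken from the table the authors deposited for pituitary and hypothalamus, and from their second table for thyroid and liver. Per the labels, libraries were made by 3′ bulk RNA barcoding and sequenced on a NovaSeq. BWA 0.7.4.4 and the build rn6 are named per the submitters' processing notes without a role, and the other steps are not given in the sources used here. Counts come from transcript 3′ ends, with no scaling by length. Ratios of Pomc to Gh1 or Prl counts were therefore used only to compare libraries and tissues, not as relative levels of the genes.

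Libraries under 100000 total counts were left out, 14 of 192. Each tissue was fitted over its 4 treatments with edgeR 4.0.16 (quasi-likelihood F test, TMM scaling, filterByExpr with a minimum count of 10, robust) in R 4.3.3 with limma 3.58.1, with Benjamini-Hochberg adjustment over all genes tested and a threshold of 0.05. The tissues were compared in vehicle libraries, and by treatment, in joint fits. Correlations used log2 of CPM plus 1 and two-sided permutation tests with 100000 resamples in Python 3.11.15 (scipy 1.17.1). The tests were checked on simulated data. Alternatives were DESeq2 1.42.0 and its size factors, no filter, other depth minimums, thinning, depth, Gh1 and block terms, and leaving libraries out. Named genes are the members, the 6 pituitary hormone genes used as gauges, the genes called within each list, and the genes of highest and lowest rank correlation with Pomc (8 and 4 in each tissue) or highest with Pcsk2 (4). Crh, Avpr1b, markers called beyond these and the peptide genes that describe single libraries were named after their values were seen. The members and lists were chosen with earlier results of these data known.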

Additional observations from a re-analysis of the deposited data

How the results depend on the processing

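Estimates for pituitary members, none of them called, changed sign under several alternatives. At a minimum depth of 500000 counts the log2 differences from vehicle were -0.59 (Pomc) and -0.14 (Pcsk2) with PFOS, and -0.31 (Pomc), -0.037 (Pcsk2), -0.040 (Tbx19) and 0.23 (Pcsk1) in the combination. With log2 depth as a covariate Pomc was at -0.16 with PFOS and -0.049 in the combination, and Pcsk1 at 0.0074 in the combination. Without libraries of unusual barcode GC content Pomc was at -0.22 with PFOS and Tbx19 at -0.060 in the combination. Pomc with PFOS was at -0.042 without pituitary vehicle library 1, while without combination library 48 it kept its sign, at 0.063. At 500000 counts the tissue difference of the Pomc response was 0.71 for vancomycin and 0.14 for PFOS. In hypothalamus the count of members called in the combination against vehicle, 1 in the reported fit, was 0 with no filter, at 500000 counts, with the depth covariate, without unusual barcode GC, thinned, or with only the 2 groups fitted. It ran from 0 to 1 when single libraries were left out, with Pomc between -0.61 and -0.40, and was 0 without vehicle library 1 and 1 without PFOS library 31. Over both PFOS contrasts 1 member was called with the Gh1 covariate. Pathway genes called for PFOS were 0, against 1, with no filter, at 500000 counts, with the depth covariate and thinned. With the depth covariate they were 0 in the combination and 1 over both PFOS contrasts, and thinned 2, against 4. With the highest ratio of any pituitary, the Gh1-scaled Pomc in vancomycin minus vehicle was 9.96 CPM, and without unusual barcode GC that in the combination minus PFOS was 0.046 CPM. The correlation of Pomc with Pcsk1 was 0.0010 with depth removed, and that with Pcsk2 was 0.41 without vehicle library 1 and 0.57 without combination library 48. The cause of these shifts was not tested. Same-numbered libraries of the 2 tissues had a median correlation of 0.0488 over 47 pairs, and 10 pairs were over 0.1. The labels do not state pairing, so the reported joint fits treated the libraries of the 2 tissues as independent. The low median does not show that they were. Among the pituitaries of their treatment, 17 of 47 hypothalami correlated best with that of their own number. Random matching within a treatment would give far fewer. Same-numbered libraries of the 2 tissues also shared a plate column. A common rat and a common plate column therefore cannot be told apart. The p-values of the reported joint fits do not allow for either. With the number as a replicate block the tissue differences were -6.20 (Pomc), -4.80 (Tbx19), -2.43 (Pcsk1) and -1.46 (Pcsk2), and the combination's tissue difference of Pomc was -1.10 with an edgeR adjusted p of 0.187. Within a tissue the treatments share no numbers. The median pituitary ratio, the gauge and hypothalamic correlations without single libraries, the removal of depth from the correlations, and the fits without pituitary libraries 1 and 48 and hypothalamus library 31, were chosen after seeing the data, as was hypothalamus vehicle library 1 for contrasts other than the combination against vehicle. A planned comparison with the other count table was not run, because it holds other tissues. Depth limited Crhr1, Pax7 and hypothalamic Tbx19, which were not tested.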

Other observations

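The libraries numbered 1, both vehicle, stood at opposite ends for Pomc. Pituitary library 1 had 1446 CPM against at least 2453 CPM in the other 47, and hypothalamus library 1 had 324 CPM against at most 251 CPM in the other 46. Hypothalamus library 1 also had Agrp at 59.0 CPM and Crhr1 at 15.2 CPM, each the second highest, and Oxt at 359 CPM and Trh at 142 CPM. Its Gh1 was 4283 CPM, near the mean of all hypothalami. Over the 47 numbers kept in both tissues, Pomc in pituitary and in hypothalamus had r = -0.31 (permutation p 0.0582) and rho = -0.18 (permutation p 0.243), and r = -0.17 without the 2 farthest. The labels do not state whether libraries of the same number come from the same rat, and these libraries also shared a plate column.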
